A study of Mus musculus with 6 samples.

Results

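Collagens are the secreted triple-helical proteins of the extracellular matrix, and the genes examined here were all rows of the deposited expression table whose mouse symbol had the form *Col*, a number, *a* and a number. This rule gave 42 collagen genes among 20856 genes with values. Of these, 11 encode chains of fibrillar collagens, 8 encode chains of basement membrane collagens and 23 belong to the other types. The libraries were RNA-seq of 6 liver tumor cell lines from C57BL/6 mice. Tumors were started in adult female mice by hydrodynamic tail vein injection, which pushes plasmid DNA into hepatocytes, of a *Myc* transposon together with the pX330 plasmid carrying Cas9 and a guide RNA. In 3 lines the guide targeted *Trp53*, the gene of the p53 tumor suppressor (labelled Myc;sgp53/Cas9, here sg*Trp53*), and in the other 3 lines it targeted *Kmt2c*, the gene of the histone methyltransferase MLL3 (labelled Myc;sgMll3/Cas9, here sg*Kmt2c*). Both genotypes therefore carried the *Myc* transposon and had been exposed to Cas9, no line had both genes untargeted by a guide, and the guide against *Kmt2c* can leave one intact allele. According to the study's methods, each line came from a different mouse. In the labels, sg*Kmt2c* replicates 2 and 3 bear the line names 2A and 2T1. The tumors were digested with collagenase and dispase, and the cells were grown on collagen-coated plates and passaged until no fibroblasts were visible, with no further treatment. The comparison asked how collagen transcripts differed between sg*Kmt2c* and sg*Trp53* lines and how far lines of 1 genotype differed from each other.

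Collagen chains assemble into trimers inside the cell after hydroxylation of proline and lysine, and are trimmed and deposited outside it. Fibrillar collagens, with types I and III the most abundant in liver, form the tensile fibrils that accumulate in fibrosis, where hepatic stellate cells and other fibroblasts are their main makers. Type IV collagen builds the sheet-like basement membrane beneath epithelia and endothelia, and its chains are encoded by gene pairs that lie head to head and share a promoter region. FACIT collagens (fibril-associated collagens with interrupted triple helices) decorate the surface of fibrils, and type VI collagen forms beaded microfilaments.

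The start regions of 6 genes on which the results turn are shown for their arrangement: both expressed type IV pairs, and the fibrillar genes *Col1a2* and *Col3a1*, which differed widely between lines. They were taken from RefSeq, assembly GRCm38.p6, as windows of 300 bases with 250 bases before and 50 bases after the annotated start, on the strand of the gene. In the windows of *Col4a1* (chr8:11312777-11313076, minus strand) and *Col4a2* (chr8:11312555-11312854, plus strand), capitals mark the 78 bases that both windows contain, read in opposite directions. In the gene coordinates of the table the 2 genes shared 22 bases at their starts.
Col4a1: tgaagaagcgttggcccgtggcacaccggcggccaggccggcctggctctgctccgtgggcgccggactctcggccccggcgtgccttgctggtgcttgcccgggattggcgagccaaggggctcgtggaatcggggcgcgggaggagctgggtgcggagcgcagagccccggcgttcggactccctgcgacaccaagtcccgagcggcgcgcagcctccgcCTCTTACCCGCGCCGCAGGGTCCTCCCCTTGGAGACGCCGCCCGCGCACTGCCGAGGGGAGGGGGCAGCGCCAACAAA
Col4a2: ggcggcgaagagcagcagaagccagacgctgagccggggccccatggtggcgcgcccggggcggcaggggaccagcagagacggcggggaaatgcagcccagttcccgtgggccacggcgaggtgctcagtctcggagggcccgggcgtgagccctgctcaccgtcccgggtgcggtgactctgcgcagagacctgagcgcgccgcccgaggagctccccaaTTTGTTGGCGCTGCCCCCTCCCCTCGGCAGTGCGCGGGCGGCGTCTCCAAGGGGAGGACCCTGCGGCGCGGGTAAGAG
The windows of *Col4a5* (chrX:141475169-141475468, plus strand) and *Col4a6* (chrX:141474027-141474326, minus strand) did not overlap, and 1308 bases separated the 2 genes. In these and in the windows of *Col1a2* (chr6:4505368-4505667, plus strand) and *Col3a1* (chr1:45311288-45311587, plus strand), capitals mark matches on either strand to the CCAAT box (CCAAT), the GC box (GGGCGG) or the TATA box (TATAAA), none of which overlapped another.
Col4a5: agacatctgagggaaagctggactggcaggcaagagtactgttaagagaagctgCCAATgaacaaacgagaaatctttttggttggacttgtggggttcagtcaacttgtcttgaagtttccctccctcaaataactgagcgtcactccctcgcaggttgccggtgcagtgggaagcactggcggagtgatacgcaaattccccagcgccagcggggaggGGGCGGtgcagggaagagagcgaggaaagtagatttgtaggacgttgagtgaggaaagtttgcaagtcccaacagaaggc
Col4a6: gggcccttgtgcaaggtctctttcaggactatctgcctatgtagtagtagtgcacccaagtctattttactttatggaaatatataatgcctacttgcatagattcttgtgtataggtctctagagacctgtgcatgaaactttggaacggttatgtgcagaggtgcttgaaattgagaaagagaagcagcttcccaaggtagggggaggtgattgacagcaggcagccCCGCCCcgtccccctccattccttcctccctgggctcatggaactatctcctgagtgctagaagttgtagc
Col1a2: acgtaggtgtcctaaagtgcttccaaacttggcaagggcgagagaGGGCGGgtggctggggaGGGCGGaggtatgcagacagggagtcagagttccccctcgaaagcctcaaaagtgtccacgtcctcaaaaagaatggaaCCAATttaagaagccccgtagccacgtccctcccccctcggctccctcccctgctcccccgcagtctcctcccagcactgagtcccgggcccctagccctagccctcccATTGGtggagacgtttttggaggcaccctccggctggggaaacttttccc
Col3a1: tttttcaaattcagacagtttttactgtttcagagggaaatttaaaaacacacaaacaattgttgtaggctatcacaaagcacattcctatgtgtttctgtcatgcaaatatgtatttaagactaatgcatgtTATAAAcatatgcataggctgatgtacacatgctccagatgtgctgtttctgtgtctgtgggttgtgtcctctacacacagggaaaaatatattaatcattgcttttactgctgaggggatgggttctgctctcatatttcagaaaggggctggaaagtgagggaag
A window was found for 34 of the 42 collagen genes, and some genes had more than 1 start, giving 37 windows. The GC box was in 23 of these 37 windows and in 35.7% of all 32851 RefSeq windows. The CCAAT box was in 13 collagen windows against 37.4% of all, and the TATA box in 5 against 13.6%. The E-box CACGTG, a sequence bound by MYC, was in none of the 37 windows and in 7.15% of all. The GC content of the 6 windows shown ran from 37.7% (*Col3a1*) to 74.0% (*Col4a1*), with a median of 52.7% over all windows. A match describes the letters only and is no evidence of a binding site, and the lack of one says only that these letters are not in the window.

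Expression was given in RPKM, the reads on a gene divided by the kilobases of its transcript and scaled to a library of 1000000 reads, and every value above 0 corresponded to a whole number of reads, which gave the read counts used here. Depth on listed genes was 5312182 to 6878625 reads for sg*Trp53* and 3680068 to 4704539 reads for sg*Kmt2c* libraries, so that 1 read on a transcript of 2 kb was worth 0.0726 to 0.136 RPKM. *Trp53* was measured at 17.2 to 19.4 RPKM in sg*Trp53* lines and at 92.2 to 124 RPKM in sg*Kmt2c* lines, while *Kmt2c* ranged from 18.4 to 24.2 RPKM in sg*Trp53* lines and from 9.51 to 25.0 RPKM in sg*Kmt2c* lines. Small insertions and deletions made by Cas9 need not change a transcript's level, so the *Kmt2c* value did not check the labels. Albumin, the defining hepatocyte product, was between 0.64 and 4.36 RPKM in all 6 lines.

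Collagen reads made up a share of the library that varied widely between lines of 1 genotype. Scaled to 1000000 reads on listed genes (RPM, with no correction for length), they amounted to 828, 5931 and 3300 RPM in sg*Trp53* replicates 1, 2 and 3, and to 802, 2447 and 1515 RPM in sg*Kmt2c* replicates 1, 2 and 3. The lowest line of each genotype was thus near the same level, and the ranges overlapped. Fibrillar collagen genes took 87.2, 3746 and 862 RPM in sg*Trp53* against 40.2, 693 and 753 in sg*Kmt2c* lines. Basement membrane genes took 432, 237 and 1416 against 746, 170 and 75.9 RPM, and the other types took 308, 1948 and 1022 against 16.6, 1585 and 686. The line with most fibrillar reads, sg*Trp53* replicate 2, had the fewest basement membrane reads of its genotype, and sg*Kmt2c* replicate 1 had the most basement membrane reads of its genotype and the fewest of both other classes. A single gene could dominate: *Col3a1* gave 43.4% of all collagen reads in sg*Trp53* replicate 2, and *Col18a1* gave 69.6% in sg*Kmt2c* replicate 1. In these bulk libraries, fewer cells making a collagen and less RNA per cell cannot be told apart.

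**Figure D1:**
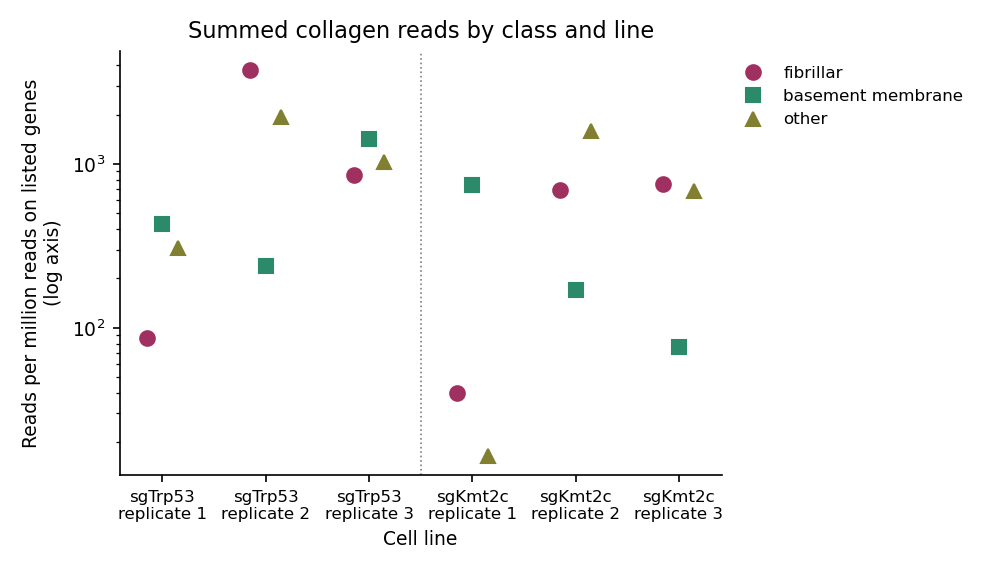
Reads on fibrillar (circles), basement membrane (squares) and other (triangles) collagen genes in RPM, scaled over listed genes, for each of the 6 lines on a log axis. Each symbol is the sum of 1 class in 1 library, and the dotted line separates the genotypes. In sgTrp53 replicate 2 fibrillar genes took 3746 RPM and basement membrane genes 237, whereas in sgKmt2c replicate 1 the order was reversed, at 40.2 and 746.

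None of the collagen genes passed the test between genotypes. Of the 42 genes, 19 had at least 1 RPKM in at least 3 libraries and were tested with limma on log2(RPKM + 1) together with all 11617 genes above that filter. At an adjusted p under 0.05, 0 collagen genes were higher and 0 lower in sg*Kmt2c* lines, where 0.0516% and 0.0775% of all genes tested were called higher and lower. Without adjustment, 2 collagen genes were lower (*Col4a5* and *Col5a2*) and 1 was higher (*Col11a2*) at p under 0.05, against 5.34% and 3.25% of all genes. The fitted difference was negative, meaning lower in sg*Kmt2c*, for 17 of the 19 collagen genes, with a median of -1.28 on the log2 scale and a range from -3.08 to 1.45. Over all genes tested 58.0% were negative and the median was -0.09. By class, 7 of 8 fibrillar genes, 3 of 4 basement membrane genes and 7 of 7 genes of other types were negative, with medians of -1.12, -1.65 and -1.15. Without sg*Kmt2c* replicate 1, 12 of 19 collagen genes were negative with a median of -0.36, and the class medians were -0.35 (5 of 8 negative), -2.03 (4 of 4 negative) and 0.0084 (3 of 7 negative), so that the basement membrane median alone moved away from 0. Without sg*Trp53* replicate 2 the fibrillar median was -0.22.

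Lines of 1 genotype differed widely in collagen transcripts. The residual SD of log2(RPKM + 1) within genotypes had a median of 1.49 over the 19 tested collagen genes and 0.368 over all genes. It was above the median of all genes for 19 of 19 collagen genes and above the 90th percentile for 13. Standard errors of the log2 differences ran from 0.441 to 2.43, and the 95% interval of each of the 19 reached at least a 2-fold change in some direction. The smallest adjusted p was 0.343 and the largest 0.948. The lack of calls does not show that levels were alike.

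**Figure D2:**
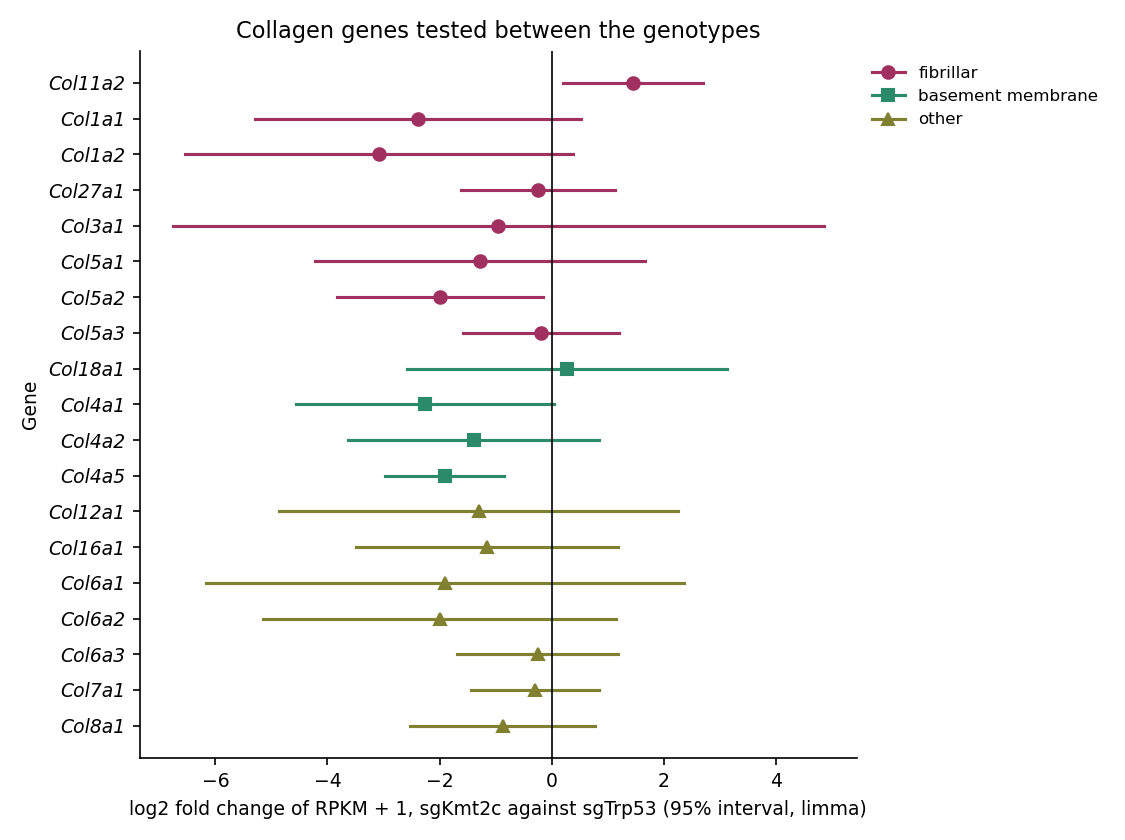
Difference in log2(RPKM + 1) between sgKmt2c and sgTrp53 lines (x axis; negative values are lower in sgKmt2c) with its 95% interval from limma, for the 19 tested collagen genes (y axis) by class. The intervals of Col4a5 and Col5a2 lie below 0 and that of Col11a2 above 0 before adjustment, and none of the 19 passed adjustment over all genes, the smallest adjusted p being 0.343.

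Among fibrillar genes, the 6 tested genes of types I, III and V were all lowest in sg*Kmt2c* replicate 1, and 4 of them (*Col1a2*, *Col3a1*, *Col5a1* and *Col5a2*) were highest in sg*Trp53* replicate 2. *Col1a1* (ENSMUSG00000001506, chromosome 11, 94936224 to 94953042), the main chain of type I collagen, was at 0.47, 23.2 and 39.2 RPKM in sg*Trp53* against 0.21, 2.01 and 1.74 RPKM in sg*Kmt2c* lines. Its partner *Col1a2* (ENSMUSG00000029661, chromosome 6, 4504814 to 4541543) was likewise high in sg*Trp53* replicates 2 and 3, at 2.70, 114 and 75.3 RPKM against 0, 8.94 and 4.40 RPKM. Both genes were lower in sg*Trp53* replicate 1 than in 2 of the sg*Kmt2c* lines, so the groups overlapped. The difference was -2.39 ± 1.22 (SE) for *Col1a1* and -3.08 ± 1.45 for *Col1a2* on the log2 scale, with limma adjusted p of 0.630 and 0.608 and exact permutation p of 0.3 for each over n = 3 and 3. *Col3a1* (ENSMUSG00000026043, chromosome 1, 45311538 to 45349706), whose homotrimer is type III collagen, was the most variable, with 65, 13679 and 488 reads in sg*Trp53* against 1, 1334 and 1255 reads in sg*Kmt2c* lines. That was 3.37, 814 and 22.4 RPKM against 0.07, 115 and 92.9 RPKM, so sg*Kmt2c* replicates 2 and 3 stood above sg*Trp53* replicates 1 and 3. Its difference of -0.95 had an interval from -6.77 to 4.87 (limma adjusted p = 0.912).

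Type V collagen nucleates the assembly of type I fibrils. Its gene *Col5a1* was at 6.38, 96.8 and 47.5 RPKM in sg*Trp53* against 1.89, 31.2 and 25.2 RPKM in sg*Kmt2c* lines (difference -1.28 ± 1.23, limma adjusted p = 0.763). *Col5a2*, which lies close to *Col3a1* on chromosome 1, was at 1.06, 11.3 and 9.90 RPKM against 0, 1.88 and 0.53 RPKM. Only sg*Kmt2c* replicate 2 reached above the lowest sg*Trp53* line, and the difference of -1.99 ± 0.77 had an unadjusted limma p of 0.0376 and an adjusted p of 0.564. *Col3a1* and *Col5a2* did not keep a fixed ratio across lines. *Col3a1* gave 60.2%, 97.2% and 51.9% of the reads of the pair in sg*Trp53* lines, and 96.7% and 98.8% in sg*Kmt2c* replicates 2 and 3, with only 1 read on the pair in replicate 1. *Col5a3* was at 0.24, 1.87 and 1.54 RPKM against 0, 2.75 and 0.65 RPKM (difference -0.18, limma adjusted p = 0.930).

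The remaining tested fibrillar genes had another order of lines. *Col11a2* (ENSMUSG00000024330, chromosome 17, 34039437 to 34066685), a chain of the type XI collagen of cartilage fibrils, had 29, 8 and 1 reads in sg*Trp53* against 20, 47 and 42 reads in sg*Kmt2c* lines. At 2.28, 0.72 and 0.07 RPKM against 2.03, 6.10 and 4.70 RPKM, it had the larger of the 2 positive differences, 1.45 ± 0.52. The groups overlapped only through sg*Trp53* replicate 1 and sg*Kmt2c* replicate 1, and the unadjusted limma p was 0.0288, with an adjusted p of 0.535. *Col27a1*, a fibrillar chain known from cartilage, was at 0.86, 6.69 and 3.23 RPKM against 3.94, 1.24 and 2.30 RPKM (difference -0.24, limma adjusted p = 0.903), and was the 1 tested fibrillar gene besides *Col11a2* in which sg*Kmt2c* replicate 1 was not lowest. *Col24a1*, which was not tested, had at most 8 reads in any library.

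**Figure D3:**
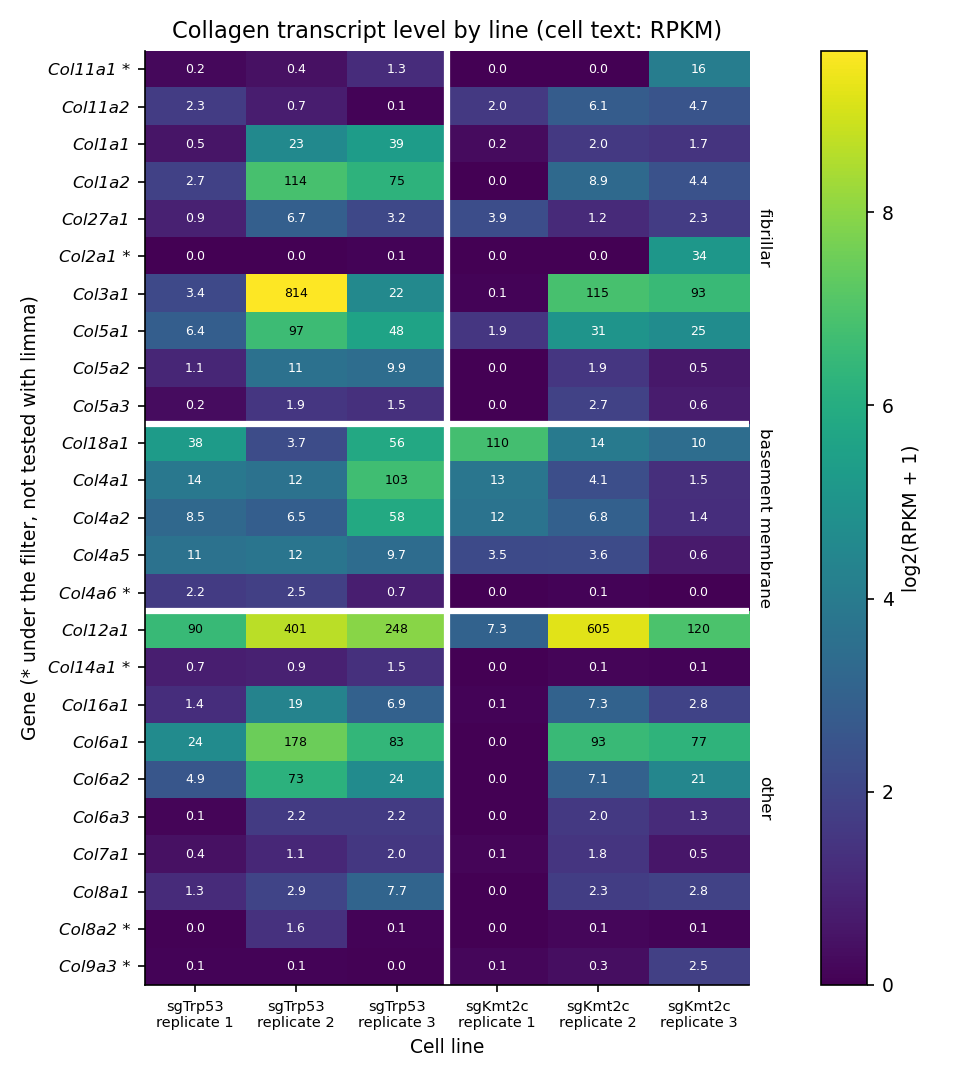
RPKM of the collagen genes with at least 20 reads in some library, by line (columns) and by class (rows), coloured by log2(RPKM + 1) with the RPKM printed in each cell. An asterisk marks a gene under the filter for the test. Col3a1 reached 814 RPKM in sgTrp53 replicate 2, Col12a1 reached 605 RPKM in sgKmt2c replicate 2, and most fibrillar and other genes were darkest in sgKmt2c replicate 1.

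Among the basement membrane genes, *Col4a5* and *Col4a6* were those with at least 20 reads whose lines did not overlap between genotypes, both lower in sg*Kmt2c*. *Col4a5* (ENSMUSG00000031274, chromosome X, 141475385 to 141689234), which encodes a chain of the type IV networks of specialised basement membranes, had 457, 434 and 438 reads in sg*Trp53* against 107, 87 and 18 reads in sg*Kmt2c* lines. In RPKM it was at 11.5, 12.5 and 9.73 against 3.47, 3.61 and 0.64, so every sg*Trp53* line lay above every sg*Kmt2c* line. The difference of -1.91 ± 0.44 on the log2 scale had an interval from -2.96 to -0.86 and an unadjusted limma p of 0.00386, but an adjusted p of 0.343. The exact permutation test gave p = 0.1, the smallest value that 3 lines against 3 allow. It was 1 of 19 tested collagen genes to be lower without overlap, where 10.4% of all genes tested were. No tested collagen gene was higher in sg*Kmt2c* without overlap, where 5.72% of all genes were. *Col4a5* also had the narrowest spread of the 19 within sg*Trp53* lines, a 1.28-fold range between the highest and lowest line.

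Its neighbour *Col4a6* (ENSMUSG00000031273, chromosome X, 141165403 to 141474076), which starts on the opposite strand at the sequence printed above, was under the filter for the test. It had 88, 89 and 34 reads in sg*Trp53* against 0, 2 and 0 reads in sg*Kmt2c* lines, or 2.17, 2.52 and 0.74 RPKM against 0, 0.08 and 0 RPKM. It is described here because its lines did not overlap, which by itself sets the exact permutation p at 0.1 (n = 3 and 3). It reached 20 reads only in sg*Trp53* lines. After scaling for depth the ratio of summed reads was 73.0, with an exact 95% interval of 19.97 to 607. This interval, like the others on reads, covers counting error only. *Col4a6* made up 16.2%, 17.0% and 7.2% of the reads of the *Col4a5* and *Col4a6* pair in sg*Trp53* lines, and 0%, 2.25% and 0% in sg*Kmt2c* lines. The pair had 107 reads in sg*Kmt2c* replicate 1 and 18 in replicate 3, so the 95% Wilson intervals reached up to 3.47% and 17.6%. Only the interval of replicate 1 stayed under all 3 sg*Trp53* shares.

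The classical chains *Col4a1* and *Col4a2*, which form the type IV trimer found in nearly all basement membranes, varied together over lines. *Col4a1* (ENSMUSG00000031502, chromosome 8, 11198423 to 11312826) was at 13.8, 11.6 and 103 RPKM in sg*Trp53* against 13.0, 4.06 and 1.49 RPKM in sg*Kmt2c* lines. *Col4a2* (ENSMUSG00000031503, chromosome 8, 11312805 to 11449287) was at 8.54, 6.50 and 58.1 RPKM against 11.7, 6.77 and 1.38 RPKM. Both were highest in sg*Trp53* replicate 3 and lowest in sg*Kmt2c* replicate 3, and sg*Kmt2c* replicate 1 lay within the range of the sg*Trp53* lines. The differences of -2.26 ± 0.96 and -1.39 ± 0.94 had limma adjusted p of 0.589 and 0.704. The balance between the 2 genes was steadier than their level in sg*Trp53* lines. *Col4a1* took 62.4%, 64.7% and 64.5% of the reads of the pair there, although the level differed by 8.86-fold, and 53.3%, 38.1% and 52.5% in sg*Kmt2c* lines. The mean share was 63.9% ± 1.27 (SD, n = 3) against 48.0% ± 8.56 (SD, n = 3), a difference of -15.9 percentage points with no overlap (exact permutation p = 0.1, Benjamini-Hochberg adjusted 0.1 over the 2 type IV pairs tested). With 42 and 38 reads in sg*Kmt2c* replicate 3, the Wilson interval of that line ran from 41.7% to 63.1% and reached the sg*Trp53* shares. The other tested share, that of *Col4a6*, averaged 13.5% ± 5.43 against 0.75% ± 1.30 (SD, n = 3 each, exact permutation p = 0.1, adjusted 0.1). Shares were looked at in 6 gene pairs, chosen after their values were seen. Pairs outside type IV were not tested, since their second gene had no read in sg*Kmt2c* replicate 1. With both tested p at the smallest possible value, the adjustment over 2 pairs changed nothing and does not correct for that choice. *Col4a1* and *Col4a2* share bases at their starts and whether the counting used strand was not given in the sources used here.

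**Figure D4:**
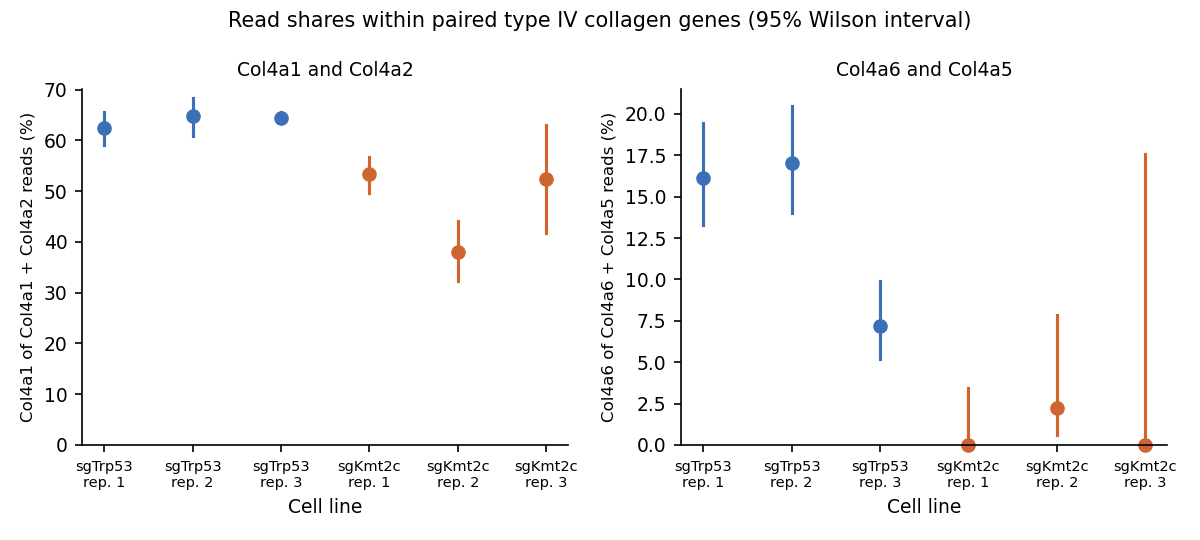
Share of Col4a1 in the summed reads of Col4a1 and Col4a2 (left) and of Col4a6 in the summed reads of Col4a6 and Col4a5 (right), in percent, for each of the 6 lines (x axis). Points are single libraries and bars are 95% Wilson intervals, which cover counting error only. The Col4a1 share lay between 62.4% and 64.7% in sgTrp53 lines and between 38.1% and 53.3% in sgKmt2c lines.

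*Col18a1* (ENSMUSG00000001435, chromosome 10, 77052178 to 77166548), the source of the anti-angiogenic fragment endostatin, was the tested collagen gene that was highest in sg*Kmt2c* replicate 1. It was at 38.4, 3.75 and 56.3 RPKM in sg*Trp53* against 110, 14.5 and 10.0 RPKM in sg*Kmt2c* lines (difference 0.27 ± 1.20, limma adjusted p = 0.948). The epithelial keratin *Krt8* was at 431, 9.27 and 265 RPKM in sg*Trp53* against 1662, 140 and 327 RPKM in sg*Kmt2c* lines. *Krt19*, another such keratin, was also highest in sg*Kmt2c* replicate 1 but lowest in sg*Kmt2c* replicate 2. *Col15a1*, *Col4a3* and *Col4a4* had at most 17, 6 and 11 reads in any library and are not described further.

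Of the other types, the FACIT gene *Col12a1* (ENSMUSG00000032332, chromosome 9, 79598991 to 79718831) had the highest RPKM. It was at 89.6, 401 and 248 RPKM in sg*Trp53* against 7.26, 605 and 120 RPKM in sg*Kmt2c* lines, where the sg*Kmt2c* group held both the highest and the lowest line (difference -1.30 ± 1.49, limma adjusted p = 0.795). *Col16a1*, another FACIT gene, was at 1.42, 18.8 and 6.91 RPKM against 0.08, 7.30 and 2.83 RPKM (difference -1.15, limma adjusted p = 0.740). *Col14a1*, a FACIT gene also known as undulin, was under the filter but did not overlap between genotypes. It had 29, 30 and 67 reads in sg*Trp53* against 0, 2 and 2 in sg*Kmt2c* lines, or 0.74, 0.87 and 1.51 RPKM against 0, 0.08 and 0.07 RPKM. It too is described because of that lack of overlap, which by itself sets the exact permutation p at 0.1. The ratio of summed reads, scaled for depth, was 21.8 with an exact 95% interval of 8.31 to 81.3. Of the 6 collagen genes under the filter with at least 20 reads in some library, *Col14a1* and *Col4a6* were lower without overlap and *Col9a3* was higher, against 12.2% lower and 3.37% higher among all 949 such genes.

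Type VI collagen was read in every line but sg*Kmt2c* replicate 1. *Col6a1* (ENSMUSG00000001119, chromosome 10, 76708792 to 76726168) had 612, 3883 and 2351 reads in sg*Trp53* against 0, 1400 and 1348 reads in sg*Kmt2c* lines, or 24.5, 178 and 83.2 RPKM against 0, 92.6 and 76.9 RPKM. *Col6a2*, also on chromosome 10, was at 4.93, 73.2 and 24.1 RPKM against 0, 7.05 and 20.7 RPKM, and *Col6a3* at 0.11, 2.21 and 2.23 RPKM against 0, 2.02 and 1.27 RPKM. All 3 chains of the trimer had 0 reads in sg*Kmt2c* replicate 1, and in the other 2 lines of that genotype each lay within the range of the sg*Trp53* lines. The limma differences of -1.91, -2.00 and -0.25 had adjusted p of 0.758, 0.702 and 0.905. Without sg*Kmt2c* replicate 1 the difference of *Col6a1* was 0.23. *Col6a1* took 68.2% to 81.4% of the *Col6a1* and *Col6a2* reads in sg*Trp53* lines, 92.0% in sg*Kmt2c* replicate 2 and 76.6% in replicate 3. The alternative chains were hardly read: *Col6a5* had 2, 12 and 4 reads in sg*Trp53* lines and 0 in each sg*Kmt2c* line, and *Col6a4* and *Col6a6* had none anywhere.

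*Col7a1*, which forms the anchoring fibrils that tie basement membrane to underlying matrix, was at 0.35, 1.10 and 1.98 RPKM in sg*Trp53* against 0.09, 1.79 and 0.51 RPKM in sg*Kmt2c* lines (difference -0.29, limma adjusted p = 0.853). *Col8a1*, a short-chain network collagen made by vascular and other mesenchymal cells, was at 1.25, 2.94 and 7.73 RPKM against 0, 2.34 and 2.79 RPKM (difference -0.87, limma adjusted p = 0.726). Both groups overlapped in these genes. *Col8a2* was read 37 times in sg*Trp53* replicate 2 and at most 2 times in any other line.

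*Col2a1*, *Col11a1* and the type IX genes, collagens known from cartilage, were read mostly in 1 line. *Col2a1* (ENSMUSG00000022483, chromosome 15, 97975602 to 98004695), the chain of the main cartilage collagen, had 732 reads in sg*Kmt2c* replicate 3, 2 reads in sg*Trp53* replicate 3 and 0 reads in the other 4 lines. This was 33.6 RPKM in that line, and 0.06 RPKM in sg*Trp53* replicate 3. *Col11a1*, which joins type II collagen in cartilage fibrils, had 143 reads (16.2 RPKM) in sg*Kmt2c* replicate 3, 0 in the other sg*Kmt2c* lines, and 2, 4 and 19 reads in sg*Trp53* lines. The 3 type IX genes, FACIT collagens on the surface of cartilage fibrils, were also read most in that line. *Col9a1* had 15 reads there and at most 1 elsewhere, *Col9a2* had 6 reads there and 0 elsewhere, and *Col9a3* had 33 reads there, 2 and 3 reads in the other sg*Kmt2c* lines and 1 read in each sg*Trp53* line. *Col9a3* was thereby the 1 member with at least 20 reads whose lines were all higher in sg*Kmt2c*, yet every line but that 1 had 3 reads or fewer. *Col10a1*, the collagen of hypertrophic cartilage, had 1 read in sg*Kmt2c* replicate 3 and at most 3 in any line. *Col11a2* did not share this pattern, nor did *Col27a1*, another fibrillar collagen of cartilage, which had most reads in sg*Trp53* replicate 2 (163, against 45 in sg*Kmt2c* replicate 3). The pattern rested on 1 line, and the exact permutation p between genotypes was 1 for *Col2a1* and for *Col11a1*. The genes were grouped after their values were seen.

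**Figure D5:**
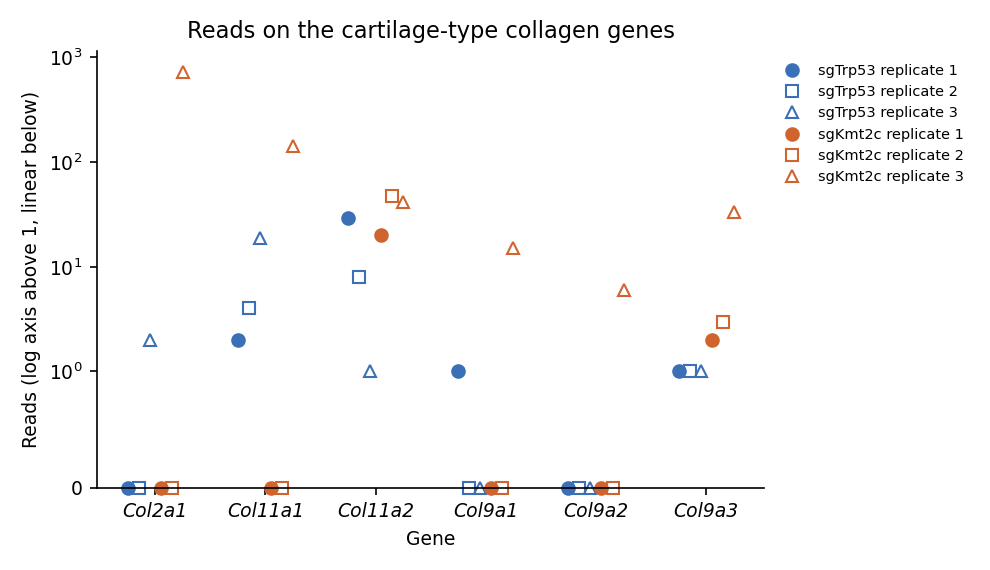
Reads on 6 cartilage-type collagen genes (x axis) in each of the 6 lines, on an axis that is logarithmic above 1 read and linear below. Blue symbols are sgTrp53 lines and orange symbols sgKmt2c lines, with 1 symbol for each library. The open orange triangle, sgKmt2c replicate 3, stands at 732 reads for Col2a1 and 143 for Col11a1, and Col11a2 was read in every line.

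The 23 collagen genes under the filter were mostly silent at this depth. Of all 42 members, 17 had fewer than 20 reads in every library, and 4 of those (*Col13a1*, *Col23a1*, *Col6a4* and *Col6a6*) had no read. *Col17a1*, *Col22a1*, *Col25a1* and *Col28a1* had at most 2 reads in any library, and *Col20a1* had at most 12. Over all 42 members, without a filter, the mean RPKM was lower in sg*Kmt2c* lines for 26, higher for 12 and 0 in both genotypes for 4. Lower means were counted for 8 of 11 fibrillar, 6 of 8 basement membrane and 12 of 23 other genes. The number of members with any read was 30, 29 and 33 in sg*Trp53* against 16, 27 and 32 in sg*Kmt2c* lines. Every sg*Kmt2c* library was shallower than every sg*Trp53* library, with 4704539, 3680068 and 4268080 reads on listed genes in replicates 1, 2 and 3. The part of depth in these numbers was not tested. In sg*Kmt2c* replicate 1 a count of 0 allows up to 3 reads, which correspond to 0.0707 RPKM for *Col6a3*, 0.155 RPKM for *Col6a1* and 0.749 RPKM for *Col1a2*.

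The same lines were often the lowest or the highest. Among the 19 tested genes sg*Kmt2c* replicate 1 was the lowest line for 13 (68.4%), and for 35.9% of all genes tested. These were 6 of 8 fibrillar genes, 7 of 7 genes of other types and 0 of 4 basement membrane genes, in 3 of which sg*Kmt2c* replicate 3 was lowest. The highest line was sg*Trp53* replicate 2 for 9 of 19 (47.4%, against 19.0% of all genes) and sg*Trp53* replicate 3 for 6 of 19 (31.6%, against 11.4%). No tested collagen gene was highest in sg*Trp53* replicate 1. The members of a class share libraries, so these counts describe 6 lines and not independent genes.

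Markers of other cell types differed between lines as well. The summed RPKM of 20 fibroblast and stellate cell markers was 23.5, 202 and 242 in sg*Trp53* against 0.525, 109 and 31.9 in sg*Kmt2c* lines. It was thus lowest in sg*Kmt2c* replicate 1 and next lowest in sg*Trp53* replicate 1, the 2 lines with the fewest fibrillar collagen reads. The other lines did not follow that order. The highest sum was in sg*Trp53* replicate 3, although replicate 2 had the most fibrillar reads. Most of that sum was *Acta2* (124 RPKM) and *Tagln* (77.6 RPKM). *Postn*, *Pdgfrb* and *Ogn* were higher in sg*Trp53* replicate 2, while *Dcn* was higher in sg*Trp53* replicate 3. In sg*Kmt2c* replicate 3 the sum was near that of sg*Trp53* replicate 1, with 753 against 87.2 fibrillar RPM. Of this marker list, 10 genes reached 1 RPKM in some sg*Trp53* line and 5 in some sg*Kmt2c* line, 5 passed the filter and 0 were called. Of the 5 that passed, 1 (*Tagln*) was lower in sg*Kmt2c* without overlap, against 10.4% of all genes tested. The highest on average were *Acta2* (3.50, 10.2 and 124 RPKM against 0, 6.397 and 11.2 RPKM), *Postn* (0.05, 107 and 3.35 against 0, 0 and 0.97) and *Tagln* (9.20, 8.30 and 77.6 against 0.40, 2.91 and 5.75), which encode smooth muscle actin, periostin and transgelin. The stellate cell markers *Lrat* and *Gfap* were at 0 in all 6 lines, *Lum* was at most 0.08 RPKM and *Pdgfra* at most 0.86 RPKM. Others were read more: *Pdgfrb* was at 0.97, 32.7 and 18.1 RPKM against 0, 23.4 and 10.4 RPKM, *Ogn* at 0.45, 39.4 and 1.49 against 0, 55.3 and 1.01, and *Dcn* at 7.39, 0.90 and 8.16 against 0, 0 and 0.25. These 7 genes were chosen after their values were seen. The 18 hepatocyte and liver progenitor markers summed to 1058, 125 and 777 RPKM in sg*Trp53* against 7179, 260 and 899 RPKM in sg*Kmt2c* lines, with 13 tested and 0 called. Their sum was highest in sg*Kmt2c* replicate 1 and lowest in sg*Trp53* replicate 2, the line with the most fibrillar reads. The most abundant genes of this list were the keratins *Krt18* (342, 14.2 and 223 RPKM against 2065, 89.3 and 167 RPKM), *Krt8* and *Krt19* (214, 37.9 and 223 against 1866, 7.06 and 166). These keratins made up most of the sum in sg*Kmt2c* replicate 1. *Hnf4a* added 1186 RPKM there, computed with a listed length of 431 bases. Members differed in their lowest line. Of the 13 tested, *Krt8*, *Krt18*, *Alb* and *Epcam* were lowest in sg*Trp53* replicate 2, and *Apoa2* and *Cebpa* in sg*Kmt2c* replicate 1. *Krt19*, *Hnf4a*, *Trf*, *Fgb*, *Apoe*, *Afp* and *Cdh1* were lowest in sg*Kmt2c* replicate 2. Of the 13, 1 (*Apoe*) was lower in sg*Kmt2c* without overlap. The 10 endothelial markers summed to 1.23 to 1.65 RPKM and 1.66 to 1.98 RPKM, and none passed the filter. Of these *Emcn* was at 0 in all lines, and the highest were *Eng* (0.22, 1.24 and 0.67 RPKM against 0.63, 1.62 and 0.39 RPKM), *Vwf* (0.64, 0.31 and 0.48 against 0.47, 0.30 and 1.17) and *Lyve1* (0.06, 0 and 0 against 0.57, 0 and 0). The 10 immune markers summed to 21.9 to 58.7 RPKM in sg*Trp53* lines and 5.51 to 15.4 RPKM in sg*Kmt2c* lines. Of the immune list 3 genes were tested and 0 called, and 2 were lower in sg*Kmt2c* without overlap, against 10.4% of all genes tested. The highest, *Lyz2*, *Cd68* and *Csf1r*, mark macrophages and other myeloid cells. *Lyz2* was at 29.0, 17.1 and 45.3 RPKM against 0, 0.21 and 12.4 RPKM, lower in sg*Kmt2c* without overlap (limma adjusted p = 0.427). *Csf1r* was also lower without overlap, at 10.0, 1.70 and 8.33 against 0.93, 0 and 0.97 (limma adjusted p = 0.440). It reached 1 RPKM only in sg*Trp53* lines, so passing the filter already fixed its lack of overlap in the count above. *Cd68* was at 7.60, 2.60 and 4.01 against 5.35, 5.29 and 1.71. *Cd3e*, *Cd79a* and *Clec4f* were at 0 in all lines. The part of other cell types in the collagen values was not tested.

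The genes that make, modify and bind collagen gave no call either. A list of 36 such genes had 35 in the table and 28 above the filter. Of these, 0 passed adjustment in either direction, 21 were negative and 7 positive with a median of -0.48, and 3 were lower and 0 higher at an unadjusted p under 0.05, against 5.34% and 3.25% of all genes. *P3h2*, a prolyl 3-hydroxylase with type IV collagen among its substrates, was at 20.9, 24.4 and 16.9 RPKM in sg*Trp53* against 0, 7.27 and 3.56 RPKM in sg*Kmt2c* lines, without overlap. Its difference was -2.68 ± 0.74 (limma adjusted p = 0.422). *P3h4*, an endoplasmic reticulum protein that supports lysine hydroxylation of collagen, was at 2.71, 11.7 and 7.997 RPKM against 1.27, 1.25 and 3.22 RPKM (difference -1.44, adjusted p = 0.542). *Adamts14*, which removes the amino-terminal propeptide of fibrillar collagens, was at 4.14, 3.19 and 1.85 RPKM against 0, 1.83 and 0.72 RPKM, also without overlap, though the nearest lines were at 1.85 and 1.83 RPKM (difference -1.22, adjusted p = 0.557). None of the 3 held after adjustment over all genes. Of the 28 tested genes of the list, 2 were lower in sg*Kmt2c* without overlap, against 10.4% of all genes tested.

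The 8 processing genes given next overlapped between genotypes. *P4hb*, the shared subunit of prolyl 4-hydroxylase, was at 301, 416 and 247 RPKM in sg*Trp53* against 355, 668 and 242 RPKM in sg*Kmt2c* lines. The catalytic subunit *P4ha1* was at 14.2, 20.5 and 28.4 RPKM against 11.2, 12.55 and 17.8 RPKM, and *P4ha2* at 38.9, 13.2 and 16.5 RPKM against 1.78, 14.0 and 22.7 RPKM. *Plod2*, the lysyl hydroxylase of collagen telopeptides, was at 18.7, 68.9 and 43.4 RPKM against 11.0, 40.9 and 23.5 RPKM. *Serpinh1*, which encodes the collagen chaperone HSP47, was at 89.9, 68.9 and 49.8 RPKM against 106, 128 and 6.16 RPKM. Its low line was sg*Kmt2c* replicate 3, in which fibrillar reads were no fewer than in replicate 2, and it was high in sg*Kmt2c* replicate 1, where the fibrillar genes were hardly read. *Bmp1*, the carboxy-terminal propeptidase, was at 14.9, 40.3 and 44.7 RPKM against 31.3, 30.1 and 15.4 RPKM. Of the receptor kinases for collagen, *Ddr1* was at 59.0, 31.0 and 47.8 RPKM against 59.9, 57.5 and 51.3 RPKM, and *Ddr2* at 0.40, 14.8 and 17.1 RPKM against 0, 1.07 and 20.4 RPKM. The limma adjusted p of these genes ran from 0.659 for *P4ha1* to 0.876 for *Serpinh1*.

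Levels of different collagen genes can be set side by side only as far as the listed transcript lengths hold. For 25 of the 42 genes the listed length equalled the longest coding transcript of the GENCODE vM1 annotation, and for 8 the longest transcript was more than 2 times as long. Of the tested genes these were *Col12a1* (6.45 times), *Col1a2* (6.29 times) and *Col11a2* (2.89 times). With the longest lengths, *Col12a1* was at 13.9, 62.2 and 38.4 RPKM in sg*Trp53* against 1.13, 93.7 and 18.6 RPKM in sg*Kmt2c* lines, under *Col6a1* in 4 of 6 lines. *Col1a2* became 0.43, 18.1 and 12.0 RPKM against 0, 1.42 and 0.70 RPKM, below *Col1a1* in each line, where with the listed lengths it was above *Col1a1* in every line but sg*Kmt2c* replicate 1. Comparisons of 1 gene between lines depend on its length only through the pseudocount and the filter. With the longest lengths the fitted difference was 0.87 instead of 1.45 for *Col11a2* and -2.14 instead of -3.08 for *Col1a2*. *Col11a2* was then at 0.786, 0.249 and 0.024 RPKM in sg*Trp53* against 0.702, 2.11 and 1.625 RPKM in sg*Kmt2c* lines, under the filter. It was still fitted there because the genes chosen with the listed lengths were kept. In all, 20 of the 42 genes, 7 of them tested, overlap another RefSeq gene, so part of their reads may belong to it.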

How the data were processed

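RNA-seq was performed on 3 sg*Trp53* and 3 sg*Kmt2c* liver tumor cell lines. According to the study's methods, reads were trimmed with Trimmomatic, aligned to GRCm38 (mm10) with STAR and counted with HTSeq, and the authors deposited RPKM values per Ensembl gene, computed with 1 transcript length per gene. The methods call such values FPKM, and the deposited table names them RPKM. The table had 21065 rows, of which 209 had no values, and 6 further columns of per-sample values were not used. The authors' own comparison (DESeq2 1.8.2: fold changes and p-values) was not used.

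Reads were recovered from RPKM and length, and 100% of values above 0 came out whole (tolerance 0.001). limma 3.58.1 (R 4.3.3; eBayes with trend, genotype as the only term) was fitted to log2(RPKM + 1) for all 11617 genes that reached 1 RPKM in 3 or more libraries. p-values were adjusted by Benjamini-Hochberg over these genes and called at an adjusted p under 0.05. Fold changes on this scale understate those of low genes. Single values were compared with two-sided exact permutation tests over libraries, for which 3 against 3 cannot go below p = 0.1. The lines count as replicates because the methods name separate mice. Reads carry no molecular identifiers, so intervals on reads (Wilson, or exact for ratios, at 95%) cover counting error only.

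Values per library are given for each collagen gene that passed the filter or whose lines did not overlap with at least 20 reads in some library. They are also given for collagen-processing genes at an unadjusted p under 0.05 plus *Serpinh1*, *P4ha1*, *P4ha2*, *Plod2*, *P4hb*, *Bmp1*, *Ddr1* and *Ddr2*, and for the 3 highest genes of each marker list. The collagen genes, classes and lists were chosen with earlier results of these data known. Alternatives varied the pseudocount, filter, scaling, moderation, transcript length and libraries. Python 3.11.15 with scipy 1.17.1 was used for other steps and matplotlib 3.10.9 for figures.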

Additional observations from a re-analysis of the deposited data

How the results depend on the processing

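With 3 lines per genotype, the median residual SD of the tested collagen genes was 1.49 on the log2 scale, and depth limited genes of few reads. The count of collagen genes called was 0 in both directions under all 18 alternatives, as was that of collagen-processing genes. Across these alternatives the smallest limma adjusted p among the 30 collagen and collagen-processing genes followed was 0.204. The limma counts at an unadjusted p under 0.05 ran from 1 to 7 lower and 0 to 1 higher for collagen genes. The median log2 difference over collagen genes ran from -1.91 to -0.36 when lines were left out in turn and from -2.11 (voom on recovered reads) to -0.25 (no filter on low values) otherwise. For fibrillar genes the ranges were -2.48 to -0.22 and -1.94 to -0.24, for basement membrane genes -2.03 to -0.87 and -2.05 to -0.85, and for other types -1.90 to 0.0084 and -2.27 to -0.15. With the replicate block, the replicate number as a term, collagen calls stayed at 0 and calls over all genes went from 15 to 0. Deviations of same-numbered lines from their genotype means correlated at 0.192, 0.399 and 0.032. Those of differently numbered lines correlated at -0.284 to 0.152. Whether same-numbered lines share more than a number was not tested. Leaving out 1 line gave 0 to 8 calls over all genes, counting sgKmt2c replicates 2 and 3 as 1 sample gave 0, voom 4, no filter 5 and no mean-variance trend 20. Of 540 single-gene values, 520 kept their sign and side of the threshold and 20 changed sign, 17 of these when 1 line was left out. The leave-one-out ranges of the genes that changed sign were -2.61 to 1.25 for Col3a1, -2.72 to 0.38 for Col12a1, -3.04 to 0.23 for Col6a1, -0.83 to 0.96 for Col18a1, -0.78 to 0.24 for Col27a1, -0.70 to 0.25 for Col5a3, -0.76 to 0.22 for Col6a3, -0.67 to 0.01 for Col7a1, -1.31 to 0.77 for Serpinh1, -0.10 to 0.63 for P4hb and -0.77 to 0.0280 for Bmp1. Others kept their sign but moved by more than 1.5 times when 1 line was left out. Among collagen genes the ranges were -3.85 to -1.47 for Col1a1, -4.635 to -2.12 for Col1a2, -2.36 to -0.17 for Col5a1 and -1.94 to -0.36 for Col16a1. They were -2.97 to -0.75 for Col6a2, -2.92 to -1.29 for Col4a1, -1.95 to -0.46 for Col4a2 and -1.33 to -0.26 for Col8a1. Among processing genes they were 0.08 to 0.53 for Ddr1, -2.36 to -0.15 for Ddr2, -0.79 to -0.31 for P4ha1, -1.73 to -0.19 for P4ha2 and -1.27 to -0.30 for Plod2. The values nearest 0 came without sgTrp53 replicate 3 for Col1a1, Col4a1, Col4a2 and P4ha1, and without sgTrp53 replicate 2 for Ddr1. For the others they came without sgKmt2c replicate 1. Quantile normalization gave 0.0255 for Col5a3 and 0.0175 for Col7a1, and counting sgKmt2c replicates 2 and 3 as 1 sample gave 0.31 for Serpinh1. The cause of these changes was not tested. The transcript length alternative was chosen after seeing the data.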
